A study of Mus musculus with 20 samples.

Results

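The interferon-stimulated genes are genes that cells switch on when they sense virus or receive interferon. They were described here in the nucleus pulposus (NP, the gel-like core of the intervertebral disc) and the annulus fibrosus (AF, the fibrous ring around the core) of old mice. The 48 genes were taken by symbol from the 51789 genes of the deposited table, and all 48 were found and passed the filter on low values, as did 16383 genes in all. They comprise 4 sensors of viral nucleic acid, 4 transcription factors, 6 genes of the ISG15 system and its neighbours, 4 IFIT genes, 5 OAS genes, 16 other antiviral effectors, 6 interferon-inducible GTPases and 3 genes of antigen processing. The rule takes genes by name and no measured value enters it.

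The mice were of the BL6 strain, and RNA was sequenced at 24 months of age. From 18 months on, for 6 months, they received weekly intraperitoneal injections of DMSO (vehicle) or of MDL-800 in DMSO, so the control mice had the solvent too. MDL-800 is a small molecule known as an activator of SIRT6, a deacylase of chromatin proteins, and the series addresses SIRT6 in the ageing disc. No genotype, allele or transgene other than the strain is given for any group. The labels name NP and AF cells, but by the protocols each library is RNA of tissue dissected under a microscope, so cells of neighbouring tissue may be in it. Each of the 4 groups has 5 libraries, named here by the numbers of their sample titles: NP vehicle 1, 2, 3, 5 and 6, NP MDL-800 15, 18, 19, 20 and 22, AF vehicle 8, 9, 10, 12 and 13, and AF MDL-800 25, 27, 28, 29 and 30. Values of a group are listed in that order. The labels do not say whether a library is 1 mouse or a pool, nor whether NP and AF came from the same mice, so p-values measure the spread between libraries, which may in part be technical.

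As background, cytosolic receptors such as RIG-I and MDA5 recognise viral RNA and lead to the making of type I interferons. Type I interferons act through a complex that holds STAT2 and IRF9 and binds a DNA element called the ISRE, while interferon gamma, made by T and NK cells, acts on a different element, the GAS. The products of the target genes block the entry, translation and release of viruses, or load peptides for display to T cells. The NP has no blood vessels and holds few immune cells, whereas the outer AF borders vessels, muscle and bone.

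Levels are given as scaled FPKM (fragments mapped to a gene relative to its transcript length and to the library's size, divided by a factor for each library), and differences on the scale of log2(scaled FPKM + 1), which understates the change of low genes. An estimate from the spacing of low values put the libraries between 12800000 and 21800000 fragments. Of the NP markers, 9 of 9 tested were higher in NP than in AF of vehicle mice, and of the AF markers 7 of 8 were lower, with Fmod the exception at 0.48 ± 0.22 (SE, adjusted p = 0.0946). Their separation was incomplete: the summed NP markers were at 25918 to 33039 in the NP libraries and at 2515 to 15172 in the AF libraries, highest in AF vehicle 9. The trend of values on gene GC content (slope per 10 points of GC content) was -0.28 in NP vehicle 1 and in NP vehicle 2, and -0.24 in AF vehicle 12, each below the other libraries of the same tissue.

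Interferon-stimulated genes made up a larger share of AF than of NP RNA. Their summed level was 0.107% to 0.142% of all FPKM in the 10 NP libraries and 0.181% to 0.311% in the 10 AF libraries, so the tissues did not overlap. Few genes led this sum. By group means of scaled FPKM, Ifitm2 and Ifitm3 made up 20.1% and 15.8% of it in AF vehicle. In NP vehicle they made up 15.7% and 3.69%. In vehicle mice 33 of the 48 were lower in NP than in AF (limma, adjusted p under 0.05), where 33.9% of all genes tested were lower, and 3 were higher, where 21.8% of all genes were higher. Without AF vehicle 12 these counts were 33 and 5, and without NP vehicle 1 and 2, whose GC trend stood apart, 29 and 1. The count of higher genes was 1 without NP vehicle 2 or without AF vehicle 13. With the GC trend removed, 6 were higher and 30 lower. Their median difference, NP minus AF, was -1.08, and that of all genes was -0.08. In MDL-800 mice 32 were lower (37.2% of all genes) and 8 higher (25.6%), with a median of -0.82 against -0.08. Of these, 33 genes were called in both treatments, all 33 in the same direction. All 5 NP values lay below all 5 AF values for 25 members in vehicle mice (25.9% of all genes tested) and for 27 in MDL-800 mice (30.5%), and above them for 1 (15.1%) and 5 (18.5%).

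**Figure D1:**
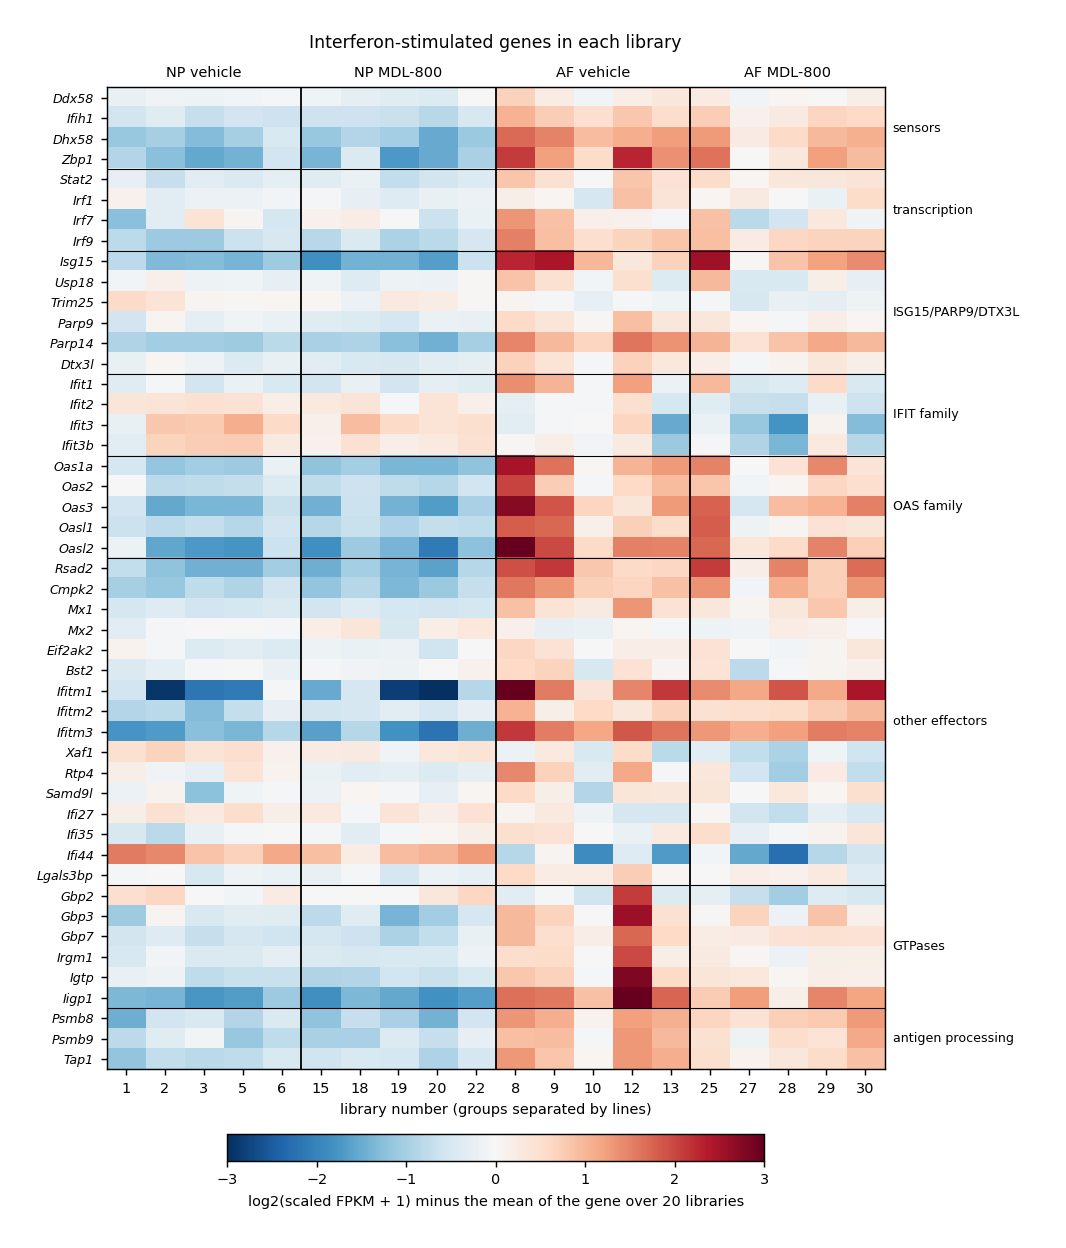
Level of each of the 48 interferon-stimulated genes (rows, by role) in each of the 20 libraries (columns, by group), as log2(scaled FPKM + 1) minus the gene's mean over all libraries, with colours saturating at -3 and 3. Most rows are blue in NP and red in AF, Ifi44 and Ifit3 show the opposite, and the GTPases are darkest in AF vehicle 12.

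How many of the genes were called depended on how libraries were put on a common scale. Quantile normalization moved the median gene by 0.29 toward NP, to 0.20, and 26 members were then lower and 8 higher in vehicle mice (median -0.70), with 25 and 9 in MDL-800 mice (median -0.39). The 7 genes that were no longer called lower in vehicle mice were Ddx58, Dtx3l, Eif2ak2, Gbp3, Ifi35, Ifit1 and Parp9, and those newly called higher were Ifit3, Ifit3b, Trim25, Xaf1 and Mx2. In MDL-800 mice Ddx58, Eif2ak2, Irf1, Mx1, Oasl1, Parp9 and Samd9l were no longer called lower. With it, the number of all genes lower in NP of vehicle mice went from 5550 to 3925 and that of genes higher from 3577 to 6474. Markers of blood and immune cells moved with the tissue difference, as did those of other tissues around the disc. All 8 endothelium (median -2.32), 8 red blood cell (-3.77), 7 bone (-3.90) and 8 skeletal muscle markers (-4.27) were lower in NP of vehicle mice. All 12 macrophage, 8 neutrophil, 8 B and plasma cell and 8 T and NK cell markers were lower in NP of vehicle mice, with summed macrophage markers at 50.5 to 121 in the 10 NP and 324 to 642 in the 10 AF libraries, neutrophil markers at 190 to 3090 against 6082 to 32755, and T and NK markers at 1.06 to 15.5 against 21.2 to 151. No marker of these lists was at 0 in all libraries of a group, and the part of these cells in the levels of interferon-stimulated genes was not tested. In bulk tissue, fewer cells of a type and less RNA per cell cannot be told apart.

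**Figure D2:**
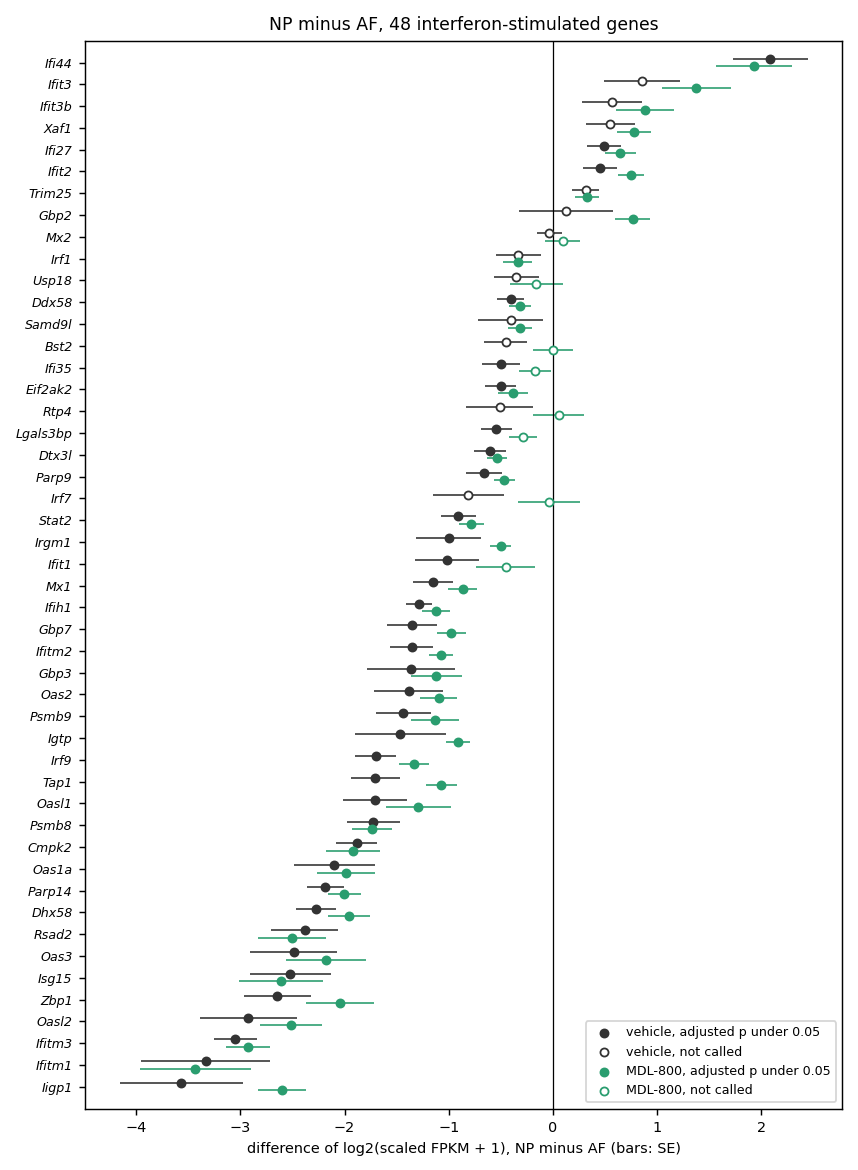
Difference NP minus AF of log2(scaled FPKM + 1) for each of the 48 genes in vehicle (dark) and MDL-800 (green) mice, with bars of 1 SE and filled points for adjusted p under 0.05. Values run from -3.57 for Iigp1 to 2.09 for Ifi44 in vehicle mice.

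All 4 sensors were lower in NP than in AF under both treatments. They are Ddx58 (RIG-I) and Ifih1 (MDA5), which detect double-stranded RNA, their relative Dhx58 (LGP2), and Zbp1, which binds Z-form nucleic acid and can start cell death. Dhx58 was at 0.536, 0.691, 0.364, 0.680 and 1.44 in NP of vehicle mice and at 0.528, 0.821, 0.676, 0.190 and 0.556 in NP of MDL-800 mice. In AF its values were 10.0, 8.48, 5.398, 6.22 and 7.00 with vehicle and 7.13, 2.99, 4.03, 5.60 and 6.03 with MDL-800. The tissues did not overlap, and the vehicle difference was -2.28 ± 0.19 (SE, adjusted p = 9.81e-06). Zbp1 differed by -2.65 ± 0.32 (SE, adjusted p = 6.92e-05) and Ifih1 by -1.29 ± 0.13 (SE, adjusted p = 2.18e-05). Ddx58 had the smallest tissue difference of the 4, -0.40 ± 0.13 (SE, adjusted p = 0.0213), and its groups overlapped. It was not called after quantile normalization (-0.16, adjusted p = 0.289) or with the GC trend removed (-0.31, adjusted p = 0.0650). In MDL-800 mice too, its call was lost in both settings (-0.058, adjusted p = 0.623, and -0.15, adjusted p = 0.228).

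Among the transcription factors the members of the STAT2 and IRF9 complex were lower in NP, while Irf7 and Irf1 were not called in vehicle mice. Irf9, the DNA-binding part of the complex, had NP levels of 5.28, 4.11, 4.11, 5.94 and 6.78 without and 5.09, 6.94, 4.63, 5.12 and 6.56 with MDL-800, and AF levels of 29.8, 19.3, 14.4, 16.3 and 18.4 without and 19.2, 11.8, 15.7, 16.3 and 16.3 with it. Every NP library lay below every AF library, with a difference of -1.70 ± 0.20 (SE, adjusted p = 4.86e-05) in vehicle mice. Stat2 was at 7.72, 5.30, 7.21, 6.5976 and 7.42 in NP vehicle and 17.3, 13.1, 9.32, 17.1 and 12.8 in AF vehicle, a difference of -0.91 ± 0.17 (SE, adjusted p = 0.000950). With MDL-800 its levels were 7.01, 7.93, 5.20, 6.04 and 6.67 in NP and 14.0, 9.64, 12.0, 12.0 and 12.3 in AF, again without overlap. Irf7, which drives the interferon alpha genes, was at 6.16, 12.3, 21.4, 17.0 and 10.7 in NP of vehicle mice and 17.6, 18.8, 16.2, 9.82 and 13.8 in NP of MDL-800 mice. Its AF levels were 41.4, 30.2, 18.0, 17.4 and 15.3 with vehicle and 30.0, 8.68, 10.5, 20.2 and 14.8 with MDL-800, so the tissues overlapped. The tissue difference of Irf7 was -0.81 ± 0.34 (SE, adjusted p = 0.0624) in vehicle mice and -0.037 ± 0.30 (SE, adjusted p = 0.924) in MDL-800 mice, where it turned to 0.20 after quantile normalization and 0.066 with the GC trend removed. The vehicle difference was called without scaling of libraries (-0.87, adjusted p = 0.0454), and when NP vehicle 3 (-0.995, adjusted p = 0.0303) or AF vehicle 13 (-0.95, adjusted p = 0.0475) was left out. Irf1, which responds to interferon gamma, differed by -0.33 ± 0.22 (SE, adjusted p = 0.218) in vehicle and -0.34 ± 0.14 (SE, adjusted p = 0.0476) in MDL-800 mice.

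Isg15, a ubiquitin-like modifier, was among the members that differed most between tissues. Its NP levels were 6.07, 3.86, 3.93, 3.5996 and 4.82 without and 2.36, 3.53, 3.52, 2.83 and 6.74 with MDL-800, and its AF levels were 58.3, 64.6, 22.965, 14.4 and 18.5 without and 69.7, 11.4, 20.998, 26.9 and 31.4 with it. All NP values lay below all AF values, with a difference of -2.52 ± 0.39 (SE, adjusted p = 0.000285) in vehicle mice, and within AF the libraries spread from 11.4 to 69.7. A transcript of another gene, AC151275.1, matches Isg15 at 95.2% of 482 bases, so reads may have been shared between them. Of the other 5 genes of this role, Parp14, an ADP-ribosyltransferase, was lower in NP, with a difference of -2.18 ± 0.18 (SE, adjusted p = 8.47e-06). Parp9 and Dtx3l, whose proteins form a complex, differed by -0.66 ± 0.17 (SE, adjusted p = 0.00687) and -0.60 ± 0.15 (SE, adjusted p = 0.00646). These neighbours share 682 bases on opposite strands of chromosome 16, and whether the counting used the strand is not given in the sources used here. Usp18, which strips ISG15 from proteins, and Trim25, a ubiquitin ligase that acts on RIG-I, were not called in vehicle mice at -0.35 ± 0.22 (SE, adjusted p = 0.198) and 0.31 ± 0.13 (SE, adjusted p = 0.0549). The sign of Usp18 turned to 0.065 after quantile normalization, where Trim25 was called at 0.55 (adjusted p = 0.00280).

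The IFIT genes, whose proteins bind viral RNA, lie beside each other on chromosome 19 and did not share 1 tissue pattern. Ifit1 was lower in NP of vehicle mice, whereas Ifit2 was higher. Ifit1 (chr19:34640871-34650009) was at 3.08, 4.02, 2.57, 3.54 and 2.81 in NP vehicle and 12.8, 9.66, 4.10, 11.3 and 3.65 in AF vehicle, a difference of -1.02 ± 0.31 (SE, adjusted p = 0.0155), with an overlap through NP vehicle 2 and AF vehicle 13. With MDL-800 it was at 2.51, 3.51, 2.53, 3.26 and 3.10 in NP and 9.31, 2.79, 3.02, 6.81 and 2.84 in AF, and the difference of -0.45 ± 0.28 (SE, adjusted p = 0.183) was not called and was 0.022 after quantile normalization. After quantile normalization the vehicle difference was -0.56 (adjusted p = 0.166). Ifit2 had NP levels of 16.3, 16.6, 17.5, 17.1 and 14.4 without and 15.6, 16.7, 12.1, 17.0 and 13.9 with MDL-800, and AF levels of 10.2, 11.9, 12.0, 17.7 and 8.34 without and 9.43, 7.52, 7.41, 10.5 and 7.84 with it. It was higher in NP by 0.45 ± 0.16 (SE, adjusted p = 0.0356) in vehicle mice, where AF vehicle 12 overlapped the NP libraries, and by 0.75 ± 0.13 (SE, adjusted p = 0.000385) without overlap in MDL-800 mice. The vehicle call of Ifit2 was lost when any 1 of NP vehicle 1, 2, 3 or 5 or of AF vehicle 8, 9, 10 or 13 was left out, with differences between 0.34 and 0.46.

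Ifit3 (chr19:34583531-34588731) was at 19.0, 40.3, 39.2, 49.1 and 33.9 in NP vehicle and 18.0, 21.7, 22.1, 35.7 and 7.28 in AF vehicle, and the difference of 0.85 ± 0.37 (SE, adjusted p = 0.0683) was not called. In MDL-800 mice it was at 25.1, 43.6, 33.967, 30.1 and 31.6 in NP and 19.3, 9.66, 5.77, 24.3 and 8.45 in AF, higher in NP by 1.38 ± 0.33 (SE, adjusted p = 0.00402) without overlap. Ifit3b (chr19:34607970-34613401) had NP levels of 5.29, 11.5, 12.0, 12.2 and 8.37 without and 7.50, 9.80, 7.91, 8.54 and 9.67 with MDL-800, and AF levels of 7.01, 7.79, 6.38, 8.39 and 2.63 without and 6.57, 3.18, 2.00, 8.61 and 3.29 with it. Its differences were 0.57 ± 0.29 (SE, adjusted p = 0.118) with vehicle and 0.88 ± 0.28 (SE, adjusted p = 0.0182) with MDL-800. The transcripts of Ifit3 and Ifit3b match at 97.8% of 1700 bases, so how reads were split between them is uncertain and they are not separate evidence. Both were called higher in NP of vehicle mice after quantile normalization (1.03, adjusted p = 0.0368, and 0.92, adjusted p = 0.0211) and without NP vehicle 1 (1.06 and 0.75). Ifit3 was also called without AF vehicle 12 (1.08).

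Promoter sequence was searched for the elements of both interferon pathways. In RefSeq sequence (GRCm38.p6) from 250 bases before to 50 after each start, 37 of the 48 genes could be matched by symbol. The core of the ISRE, searched on both strands as GAAA, any 2 bases and GAAA again, was present in 19 of these 37 (51.4%) and in 3.99% of 27025 genes. The GAS, searched as TTCNNNGAA, which reads the same on both strands, was present in 10 of 37 (27.0%) and in 9.55% of genes. By tissue call in vehicle mice, 15 of the 26 matched genes lower in NP held the ISRE core, as did 4 of 9 not called and 0 of 2 higher in NP (Ifi44 and Ifit2). A match is a description of letters and not evidence of binding. The windows that follow are shown because Ifit1, Isg15 and Rsad2 were lower in NP, Ifit3 and Ifit3b were higher in NP of MDL-800 mice, and Igtp carries both elements. Capitals mark matches, those in capital TTTC being the ISRE core read on the opposite strand, and matches are placed in bases relative to the RefSeq start.
Ifit1, chr19:34640764-34640823, plus strand, matches beginning at -104 and -85: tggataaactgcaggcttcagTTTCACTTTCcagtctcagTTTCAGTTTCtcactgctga
Ifit3, chr19:34583359-34583428, plus strand, matches beginning at -156 and -122: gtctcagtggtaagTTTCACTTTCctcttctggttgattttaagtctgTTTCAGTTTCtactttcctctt
Ifit3b, chr19:34607755-34607824, plus strand, matches beginning at -188 and -154: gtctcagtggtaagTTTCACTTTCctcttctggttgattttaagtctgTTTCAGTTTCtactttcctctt
Isg15, chr4:156200864-156200913, minus strand, matches beginning at -78, -72 and -66: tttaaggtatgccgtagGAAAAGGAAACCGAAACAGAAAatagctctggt
Rsad2, chr12:26456548-26456587, minus strand, match beginning at -120: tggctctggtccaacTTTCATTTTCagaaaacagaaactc
Igtp, chr11:58199491-58199540, plus strand, matches beginning at -45 and -34: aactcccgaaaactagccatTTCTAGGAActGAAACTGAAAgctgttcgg
The 70 bases of Ifit3 and Ifit3b are identical, and each holds the core 2 times, as does the window of Ifit1. In Isg15, 3 overlapping matches follow each other, and in Igtp the first capitals are the GAS and the second the ISRE core.

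All 5 OAS genes, whose enzymes make the oligoadenylates that activate RNase L or belong to their family, were lower in NP under both treatments. Their median difference was -2.10 in vehicle and -1.98 in MDL-800 mice. Oas1a (chr5:120896256-120907521) was at 0.782, 0.155, 0.243, 0.207 and 1.25 in NP of vehicle mice and 0.119, 0.274, 0, 0 and 0.124 in NP of MDL-800 mice, with 2 libraries listed at 0. In AF it was at 13.3, 7.04, 1.68, 4.21 and 5.25 with vehicle and 6.24, 1.57, 2.50, 6.02 and 2.39 with MDL-800, and no NP library reached the lowest AF library. The vehicle difference was -2.10 ± 0.39 (SE, adjusted p = 0.000943), and the transcripts of Oas1a and Oas1g match at 97.6% of 1861 bases, so their reads may have been shared. Oasl2 differed by -2.92 ± 0.46 (SE, adjusted p = 0.000348), Oas3 by -2.49 ± 0.42 (SE, adjusted p = 0.000499), Oasl1 by -1.71 ± 0.30 (SE, adjusted p = 0.000727) and Oas2 by -1.38 ± 0.33 (SE, adjusted p = 0.00442). Within NP, all 5 were highest in vehicle 1 and 6 among the vehicle libraries, and all but Oasl1 in 18 and 22 among the MDL-800 libraries. These libraries also had the highest neutrophil marker sums of their groups (1599 and 3090, and 1626 and 1653). The marker sums of T and NK cells, red blood cells and plasmacytoid dendritic cells were highest in the same libraries. Those of macrophages, B and plasma cells, endothelium, bone and skeletal muscle were not in both groups. The part of any of these cells in the OAS levels was not tested. Within AF vehicle all 5 were highest in library 8, with Oasl2 at 44.6 and Oas3 at 27.3.

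The 16 other effectors held both the most abundant members and the widest range of tissue differences, from -3.33 to 2.09 in vehicle mice. Of these, 9 were lower in NP, 2 were higher and 5 were not called. The IFITM proteins, which stop viruses from fusing with the cell, were lower in NP. Ifitm3 (chr7:141009586-141010770) had NP levels of 21.3, 22.3, 30.8, 28.4 and 41.0 without and 23.4, 40.8, 20.6, 15.2 and 26.5 with MDL-800, and AF levels of 328, 219, 169.9, 275 and 229 without and 187, 161, 176, 219 and 211 with it. The tissues stood far apart, with a difference of -3.05 ± 0.21 (SE, adjusted p = 4.06e-06) in vehicle mice. Ifitm1 (chr7:140967221-140969825) had NP levels of 7.06, 0.598, 1.66, 1.75 and 10.7 without and 3.21, 7.47, 0.686, 0.138 and 5.63 with MDL-800, and AF levels of 118, 34.6, 14.8, 32.1 and 51.1 without and 31.1, 26.0, 43.7, 25.2 and 64.4 with it. It was lower in NP, with a difference of -3.33 ± 0.62 (SE, adjusted p = 0.000999) in vehicle mice, and its NP values spread over a wider range than those of Ifitm3, with the highest in the same libraries (vehicle 1 and 6, MDL-800 18 and 22) that led for the OAS genes. Ifitm2, the most abundant member in AF, had NP levels of 111, 117, 82.7, 126 and 174 without and 141, 145, 162, 146 and 174 with MDL-800, and AF levels of 422, 233, 313, 258 and 331 without and 283, 293, 301, 349 and 401 with it, lower in NP, with a difference of -1.36 ± 0.21 (SE, adjusted p = 0.000283). Ifitm2 has processed relatives such as Gm11951 that match it at 97.0% of 432 bases, and Ifitm1 has Gm7676, so part of their reads may lie elsewhere.

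Ifi44 and Ifi27 were the effectors higher in NP of vehicle mice. Ifi44, a cytoplasmic protein of uncertain role (chr3:151730922-151749960), had NP levels of 63.1, 58.1, 38.2, 33.8 and 46.8 without and 39.4, 24.5, 39.9, 43.2 and 51.7 with MDL-800, and AF levels of 11.0, 21.9, 4.84, 15.5 and 5.73 without and 19.4, 6.47, 3.56, 10.9 and 13.8 with it. All NP libraries were above all AF libraries, by 2.09 ± 0.36 (SE, adjusted p = 0.000599) with vehicle and 1.93 ± 0.37 (SE, adjusted p = 0.000921) with MDL-800, and it was the 1 member without overlap in this direction in vehicle mice. Ifi27 (chr12:103434211-103440239) had NP levels of 123, 150.0, 134, 158 and 124.7 without and 134, 105, 143, 127 and 148 with MDL-800, and AF levels of 115, 132, 98.6, 77.1 and 76.5 without and 112, 74.9, 65.5, 90.5 and 78.9 with it. It was the most abundant member in NP vehicle and was higher there than in AF by 0.49 ± 0.16 (SE, adjusted p = 0.0236), with overlap through AF vehicle 9. Within AF both genes were highest in vehicle 9 and in MDL-800 25, the libraries with the highest NP marker sums of their groups (15172 and 7599). The part of NP tissue in these AF levels was not tested. Xaf1, linked to cell death, was higher in NP of MDL-800 mice by 0.78 ± 0.16 (SE, adjusted p = 0.00159) and was not called in vehicle mice at 0.55 ± 0.24 (SE, adjusted p = 0.0693).

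**Figure D3:**
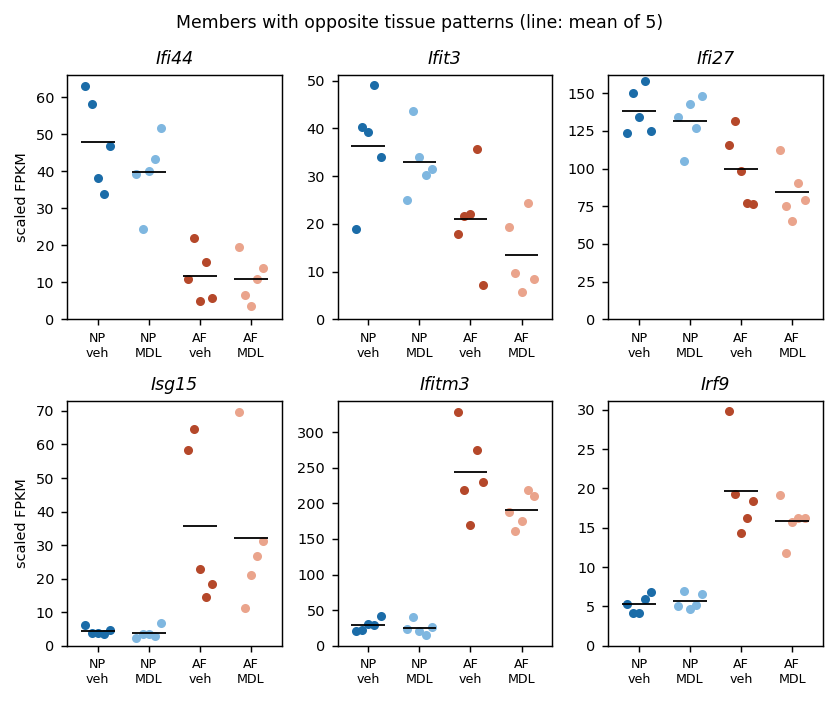
Scaled FPKM of 6 members in each library, by group, with a line at the mean of 5 libraries. Ifi44, Ifit3 and Ifi27 have their highest group means in NP, whereas Isg15, Ifitm3 and Irf9 lie higher in every AF library than in any NP library.

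Rsad2 (viperin, which makes a nucleotide that ends viral RNA chains) and its neighbour Cmpk2 on chromosome 12 were both lower in NP, with differences of -2.38 ± 0.32 (SE, adjusted p = 0.000124) and -1.88 ± 0.20 (SE, adjusted p = 2.95e-05) in vehicle mice. Rsad2 was highest in the same AF libraries as Isg15, at 57.1 and 65.8 in vehicle 8 and 9 and at 64.4 in MDL-800 25. Mx1 was at 0.0199 to 0.165 in the 10 NP and 0.617 to 2.80 in the 10 AF libraries. Eif2ak2 (PKR, which halts translation) differed by -0.50 ± 0.15 (SE, adjusted p = 0.0154) and Lgals3bp, a secreted glycoprotein, by -0.54 ± 0.15 (SE, adjusted p = 0.00907). Lgals3bp was not called with the trend on GC content removed (-0.34, adjusted p = 0.170). Ifi35 had NP levels of 9.49, 7.43, 11.7, 13.3 and 13.9 without and 13.2, 10.8, 13.4, 14.3 and 15.5 with MDL-800, and AF levels of 19.4, 18.7, 13.4, 11.9 and 16.9 without and 20.3, 11.4, 13.1, 14.8 and 17.8 with it, and its tissue difference of -0.50 ± 0.19 (SE, adjusted p = 0.0405) rested on overlapping groups. Ifi35, Ifit2 and Ifi27 were the 3 of 36 called genes that lost their call when some single library was left out. For Ifi35 these were NP vehicle 1, 2 and 3 and AF vehicle 8, 9 and 13 (-0.52 to -0.37), and for Ifi27 NP vehicle 2 and 5 and AF vehicle 12 and 13 (0.40 to 0.46). In MDL-800 mice Trim25, Irf1, Eif2ak2, Ddx58 and Samd9l were the 5 of 40 that lost it in some such fit.

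The 5 effectors not called between tissues of vehicle mice were Mx2, Bst2, Xaf1, Rtp4 and Samd9l. Bst2 (tetherin, which holds budding virus at the cell surface) was at 12.6, 14.2, 17.0, 17.2 and 15.0 in NP vehicle and 26.7, 28.2, 12.1, 23.9 and 18.6 in AF vehicle. With MDL-800 it was at 16.7, 15.9, 15.6, 17.2 and 19.2 in NP and 23.2, 9.62, 16.9, 18.6 and 19.4 in AF, and the vehicle tissue difference was -0.45 ± 0.21 (SE, adjusted p = 0.0846). Mx2, annotated as a polymorphic pseudogene, was near the filter in every group, with NP levels of 0.600, 0.918, 0.981, 0.986 and 0.918 without and 1.30, 1.56, 0.424, 1.29 and 1.49 with MDL-800, and AF levels of 1.22, 0.676, 0.744, 1.08 and 0.933 without and 0.796, 0.842, 1.34, 1.21 and 1.02 with it. Its tissue difference in vehicle mice was -0.034 ± 0.12 (SE, adjusted p = 0.834), and it changed sign to 0.51 (adjusted p = 0.00775) after quantile normalization, so no direction is given. Samd9l, a restriction factor for poxviruses, had NP levels of 19.5, 24.0, 8.88, 20.0 and 21.5 without and 19.5, 23.2, 21.1, 18.4 and 22.9 with MDL-800, and AF levels of 33.2, 25.2, 11.5, 28.8 and 28.1 without and 28.8, 22.1, 27.7, 23.1 and 31.1 with it. Its difference in vehicle mice was -0.41 ± 0.31 (SE, adjusted p = 0.289). Without AF vehicle 10, Bst2 (-0.64, adjusted p = 0.00420), Rtp4 (-0.74, adjusted p = 0.0466) and Samd9l (-0.66, adjusted p = 0.0474) were called lower in NP.

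The interferon-inducible GTPases, which attack the vacuoles of intracellular pathogens and respond to interferon gamma, were led by 1 library. In AF vehicle 12, Iigp1, Igtp, Irgm1, Gbp2, Gbp3 and Gbp7 were each higher than in any other of the 20 libraries. Iigp1 had NP levels of 0.514, 0.454, 0.152, 0.197 and 0.800 without and 0.0697, 0.515, 0.313, 0.0952 and 0.227 with MDL-800, and AF levels of 11.1, 10.5, 6.04, 100.7 and 11.8 without and 5.48, 8.11, 3.34, 9.62 and 7.68 with it. It was lower in NP, with a difference of -3.57 ± 0.59 (SE, adjusted p = 0.000472) in vehicle mice and of -2.91 (adjusted p = 1.42e-05) without AF vehicle 12, and the tissues did not overlap either way. Igtp (chr11:58199556-58207591) was at 22.2, 20.3, 11.6, 91.0 and 19.1 in AF vehicle and 10.2, 10.9, 6.77, 7.36 and 7.35 in NP vehicle, a difference of -1.46 ± 0.43 (SE, adjusted p = 0.0144), or -1.01 (adjusted p = 0.00217) without that library. Irgm1 (chr11:48861968-48871683) was at 28.5, 28.5, 19.6, 79.7 and 21.9 in AF vehicle and 13.5, 18.0, 14.1, 13.9 and 15.5 in NP vehicle, a difference of -1.001 ± 0.31 (SE, adjusted p = 0.0189), or -0.67 (adjusted p = 0.00259) without it. Gbp2 (chr3:142620602-142638008) was at 20.3, 24.6, 16.7, 114 and 19.2 in AF vehicle and 37.009, 40.3, 26.1, 24.6 and 30.8 in NP vehicle, and outside library 12 just AF vehicle 9 passed the lowest NP library. Its difference of 0.12 ± 0.45 (SE, adjusted p = 0.834) was 0.62 (adjusted p = 0.0105) without library 12, -0.061 without AF vehicle 10 and -0.013 without AF vehicle 13. It was higher in NP of MDL-800 mice by 0.76 ± 0.17 (SE, adjusted p = 0.00244), without overlap. Gbp3 and Gbp7, neighbours of Gbp2, were lower in NP, with differences of -1.36 ± 0.42 (SE, adjusted p = 0.0170) and -1.35 ± 0.24 (SE, adjusted p = 0.000766).

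Library 12 of AF vehicle also stood apart in Ifng, the gene of interferon gamma, which was looked up after the GTPase values were seen, as were Igtp, Irgm1 and Gbp2. Ifng was at 8.87 there, about 177 fragments by the depth estimate, and at 0 to 0.292 (at most 6 fragments) in the other 19 libraries. Cxcl9 and Cxcl10, chemokines that attract T cells and are induced by interferon gamma, were at 40.1 and 35.3 in it and at most at 3.74 and 7.59 elsewhere. These belong to the list of 45 other interferon-stimulated genes and were not chosen by a fixed rule. Other genes of that list went the other way. Ube2l6, Uba7 and Isg20, at 67.4, 9.11 and 29.3 in library 12, were the lowest of the AF vehicle group. The T and NK cell markers summed to 151 in library 12 and to 21.2 to 82.4 in the other 4 AF vehicle libraries, and 7 of the 8 were highest there within that group. Cd3e was at 19.5 against 1.90 to 5.16, but Nkg7 was at 69.5 against 63.9 in vehicle 8, and Klrb1c, at 0.295, was the lowest of its group (0.563 to 1.48 in the others). Of the 8 skeletal muscle markers 7 were also highest in library 12 among the AF vehicle libraries, as were 5 of the 12 macrophage and 0 of the 8 neutrophil markers. Isg15 in this library, at 14.4, was the lowest of the AF vehicle group, and Rsad2, at 21.7, was too. Within AF vehicle the GTPases were thus highest in library 12 and Isg15 in library 9. Within AF MDL-800, Isg15, Gbp2, Irgm1 and Igtp were all highest in library 25, and Gbp3, Gbp7 and Iigp1 in library 29. Over the 10 AF libraries, 20 of the 48 genes were highest in vehicle 8, 18 in vehicle 12, 4 in vehicle 9 and 4 in MDL-800 25. The lowest values fell in MDL-800 27 for 22 genes, in MDL-800 28 for 14 and in vehicle 10 for 9.

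**Figure D4:**
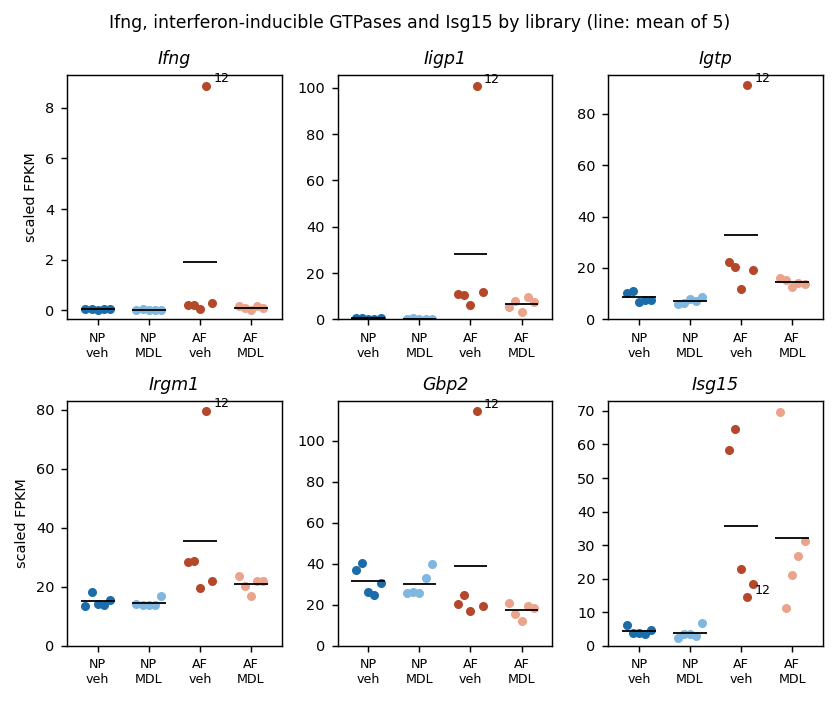
Scaled FPKM of Ifng, 4 interferon-inducible GTPases and Isg15 in each library, by group, with a line at the mean of 5 and AF vehicle 12 marked. That library is the highest of all 20 for Ifng, Iigp1, Igtp, Irgm1 and Gbp2, and the lowest of its group for Isg15.

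The 3 genes of antigen processing lie together on chromosome 17 and were all lower in NP under both treatments. Psmb8 and Psmb9, subunits of the immunoproteasome, differed by -1.72 ± 0.26 (SE, adjusted p = 0.000247) and -1.43 ± 0.26 (SE, adjusted p = 0.000857). Tap1 (chr17:34187553-34197225), part of the pump that moves peptides to MHC class I, was at 4.09, 5.93, 5.58, 5.78 and 7.39 in NP vehicle and 27.2, 19.6, 10.9, 27.5 and 23.5 in AF vehicle. With MDL-800 it was at 6.57, 7.36, 7.04, 5.08 and 7.08 in NP and 15.0, 11.4, 13.5, 16.0 and 20.1 in AF, and the tissues did not overlap. The tissue difference of Tap1 was -1.70 ± 0.24 (SE, adjusted p = 0.000147) in vehicle mice and -1.07 ± 0.15 (SE, adjusted p = 0.000103) in MDL-800 mice. Psmb9 and Tap1 overlap by 212 bases on opposite strands.

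Genes upstream and beside the 48 showed the same direction in most cases. Among receptors and signalling genes 10 of 11 were lower in NP of vehicle mice and 0 higher, where 33.9% of all genes were lower and 21.8% higher. These are the shares of all genes for the other lists too. Ifnar2 and Ifngr1, chains of the receptors for type I interferon and interferon gamma, differed by -1.23 ± 0.10 (SE, adjusted p = 9.17e-06) and -1.42 ± 0.15 (SE, adjusted p = 3.29e-05), and Tyk2, a kinase of the type I receptor, by -0.70 ± 0.19 (SE, adjusted p = 0.00797). Among 13 further sensors 9 were lower and 0 higher, with Aim2, a DNA sensor, at -2.58 ± 0.19 (SE, adjusted p = 5.59e-06), Tlr7, an endosomal RNA receptor, at -2.72 ± 0.21 (SE, adjusted p = 7.10e-06), and Trex1, which degrades cytosolic DNA, at -1.10 ± 0.36 (SE, adjusted p = 0.0221). Of 9 negative regulators 6 were lower and 0 higher, with the phosphatase Ptpn6 at -2.99 ± 0.39 (SE, adjusted p = 0.000109), Trim30a at -1.59 ± 0.28 (SE, adjusted p = 0.000683) and Pias4 at -0.15 ± 0.20 (SE, adjusted p = 0.544). Of 12 genes of MHC class I and peptide loading 8 were lower and 0 higher, with the heavy chains H2-D1 and H2-K1 at -2.03 ± 0.18 (SE, adjusted p = 1.16e-05) and -1.56 ± 0.17 (SE, adjusted p = 4.20e-05) and the proteasome activator subunit Psme2 at -0.0081 ± 0.12 (SE, adjusted p = 0.959). Of 45 other interferon-stimulated genes 42 were tested, 30 were lower and 2 higher. Slfn5 and Ifi207 were lower, at -2.98 ± 0.20 (SE, adjusted p = 3.98e-06) and -2.80 ± 0.22 (SE, adjusted p = 7.68e-06), and Parp10 was not called at -0.43 ± 0.22 (SE, adjusted p = 0.115). The 2 that were higher in NP, Apol9a and Apol9b, apolipoprotein L genes, differed by 1.96 ± 0.28 (SE, adjusted p = 0.000201) and 1.72 ± 0.29 (SE, adjusted p = 0.000547). Of the 21 interferon genes searched none passed the filter, and 18 of 21 were listed at 0 in every NP vehicle library and 17 of 21 in every AF vehicle library.

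None of the 48 interferon-stimulated genes was called between MDL-800 and vehicle in NP by limma, where 0.25% of all genes tested (41 genes) were called. At an unadjusted p under 0.05 there were 3 of 48, against 14.1% of all genes. Their median difference, MDL-800 minus vehicle, was -0.10, that of all genes was -0.03. Of the 48 values 40 were negative and 8 positive, where 42.6% of all genes were positive. With the trend on GC content removed 34 were negative, and with NP vehicle 1 and 2 left out 32 were negative (median -0.07). The GC slope separated the treatments in NP, at -0.28 to -0.0067 in vehicle and 0.023 to 0.088 in MDL-800 libraries. The smallest adjusted p was that of Rtp4, a receptor transporter protein (chr16:23520291-23614222), at 17.9, 14.4, 13.0, 21.4 and 17.1 in vehicle and 13.6, 12.4, 12.8, 11.6 and 12.7 in MDL-800 libraries. These overlapped, with a difference of -0.36 ± 0.12 (SE, adjusted p = 0.196). Oas1a differed by -0.42 ± 0.18 (SE, adjusted p = 0.335), and Ifitm2, the largest positive value, by 0.36 ± 0.16 (SE, adjusted p = 0.349). Dtx3l was at 8.68, 10.9, 9.17, 7.56 and 8.81 with vehicle and 7.98, 7.33, 7.21, 8.00 and 8.36 with MDL-800, a difference of -0.19 ± 0.098 (SE, adjusted p = 0.432). Ifi35 and Bst2 were at 0.27 ± 0.16 (SE, adjusted p = 0.489) and 0.15 ± 0.097 (SE, adjusted p = 0.521). Rtp4, Oas1a and Ifitm2 were the 3 genes with an unadjusted p under 0.05, none passed the adjusted threshold, and the groups of all 48 genes overlapped, where MDL-800 libraries lay above all vehicle libraries for 3.5% of all genes and below them for 1%.

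In AF too, none of the 48 was called between MDL-800 and vehicle by limma, nor was any gene of the table (0% called). At an unadjusted p under 0.05 there were 2 of 48, against 1.65% of all genes, and this count moved with the libraries used. It was 14 without AF vehicle 10, 7 without AF MDL-800 25, 5 without AF vehicle 13, 0 without AF vehicle 9 or 12 or AF MDL-800 27 or 28, and 10 in the fit of all 4 groups. The same settings gave 211 to 436 of the 16383 genes, against 270.0 with all libraries. Of the values 44 of 48 were negative, where 52.6% of all genes were positive, and the median was -0.32, where that of all genes was 0.01. Over the 10 AF libraries 20 of the 48 genes were highest in vehicle 8 and 18 in vehicle 12. The lowest values fell in MDL-800 27 for 22 genes and in MDL-800 28 for 14. Genes that vary together are not separate observations, so counts of signs, here and in the other comparisons, are description only. All 48 pairs of groups overlapped, where 0.128% of all genes lay above and 0.0977% below without overlap. Rtp4 was at 44.8, 25.8, 12.3, 36.032 and 15.2 in vehicle and 20.0, 10.3, 7.16, 18.8 and 9.09 in MDL-800 libraries, a difference of -0.93 ± 0.39 (SE, unadjusted p = 0.0354, adjusted p = 1). Ifit2 differed by -0.42 ± 0.18 (unadjusted p = 0.0407) and Dhx58 by -0.47 ± 0.22 (unadjusted p = 0.054). The positive values were those of Samd9l, Mx2, Ifitm2 and Rsad2, at 0.13 ± 0.25, 0.083 ± 0.12, 0.081 ± 0.18 and 0.026 ± 0.43. Dtx3l was at 17.2, 14.2, 9.97, 17.4 and 13.3 with vehicle and 12.1, 9.91, 11.3, 13.5 and 11.9 with MDL-800.

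The GTPases had the lowest median of the roles in AF under MDL-800, and that median rested on library 12. It was -0.67 with all libraries and -0.22 without AF vehicle 12, while that of the OAS genes went from -0.48 to -0.61. Iigp1 went from -1.15 ± 0.62 to -0.50, and Igtp from -0.75 ± 0.43 to -0.29. The median over all 48 was -0.23 without library 12 and -0.23 without AF vehicle 8, with 0 called in each. The OAS genes were all highest of the AF vehicle group in library 8, and their median without it was not computed. Leaving out each AF library in turn, libraries 8 and 12 included, gave medians of the 48 between -0.44 and -0.23. All 12 macrophage markers and 7 of 8 T and NK cell markers were negative in the same comparison, with 0 called, while all 8 neutrophil markers were positive. All 7 bone markers were positive too, with a median of 0.77, 0 called and 3 at an unadjusted p under 0.05 by limma. Of the red blood cell and endothelium markers 7 of 8 each were positive, and of the skeletal muscle markers 7 of 8 were negative. Without AF vehicle 12 the macrophage count was again 12 of 12, but 4 of 8 T and NK cell and 4 of 8 neutrophil markers were negative. In that fit 4 of 8 red blood cell, 3 of 8 endothelium and 3 of 8 skeletal muscle markers were negative. All 7 bone markers were again positive. With the macrophage markers as a covariate the median of the 48 was -0.37, but such a fit cannot tell cell content from RNA per cell. The part of macrophages or other cells in these values was not tested.

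**Figure D5:**
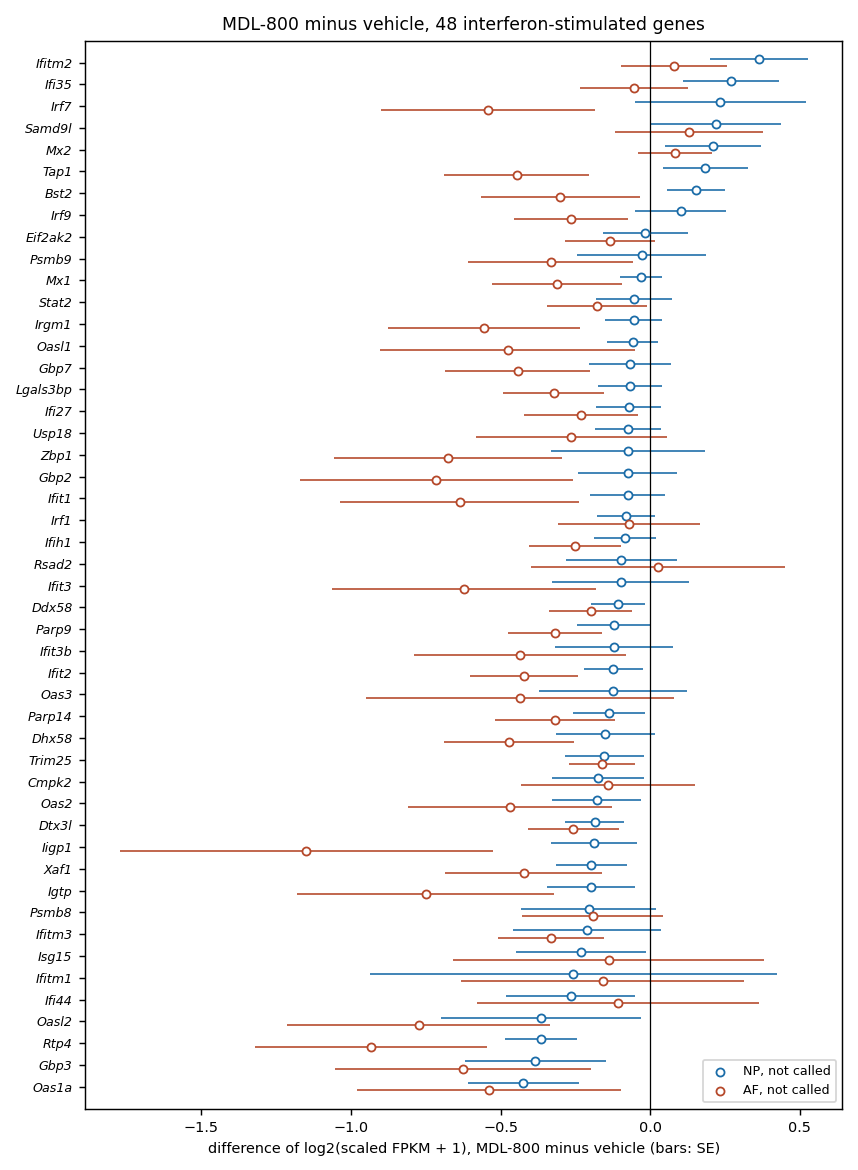
Difference MDL-800 minus vehicle of log2(scaled FPKM + 1) for each of the 48 genes in NP (blue) and AF (red), with bars of 1 SE and open points because none was called. In AF 44 of 48 points lie left of 0 and most bars are longer than in NP, where 40 of 48 lie left of 0.

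The effect of MDL-800 was not shown to differ between tissues for any of the 48 genes. In the fit of all 4 groups, 0 were called by limma for the difference of effects (0% of all genes), and 1 had an unadjusted p under 0.05, against 3.73% of all genes. That gene was Tap1, with 0.63 ± 0.29 (SE, unadjusted p = 0.0416, adjusted p = 1), from effects of 0.18 ± 0.14 in NP and -0.45 ± 0.24 in AF. Irf7 came next at 0.78 ± 0.48 (unadjusted p = 0.123), from 0.23 ± 0.29 in NP and -0.54 ± 0.36 in AF. The median difference of effects, NP minus AF, was 0.27, with 41 of 48 positive, where that of all genes was -0.024 and 45.8% of them were positive. It was 0.15 without AF vehicle 12.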

How the data were processed

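RNA of 20 tissue libraries was sequenced as stranded total RNA after removal of ribosomal RNA, from 50 ng of RNA with 14 PCR cycles, per the labels' protocols. The values analysed are FPKM per gene with 2 decimals, as deposited by the authors for 51789 genes. STAR 2.7.11b and the mm10 genome are named in the submitters' processing notes, and the step that gave FPKM and its annotation are not given in the sources used here. Because FPKM are not counts, no count test was run.

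Each library was divided by a median-ratio factor over 11308 genes (0.933 to 1.062). Genes reaching 1 FPKM in 5 or more libraries (16383) were tested as log2(scaled FPKM + 1) with limma 3.58.1 in R 4.3.3. Each fit held the 2 groups compared, or all 4 for the difference of effects, with a mean-variance trend, two-sided p-values and Benjamini-Hochberg adjustment over all 16383 genes. A call is an adjusted p under 0.05, and the code was tested on simulated data. Alternatives changed the pseudocount, filter, scaling, GC trend, covariate, groups in the fit and libraries left out.

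Depth was estimated from 6647 single-exon genes, where 79.0% to 84.4% of values lay within 0.15 of a whole number of fragments. That is too few for recovered counts, so no counting interval is given, and the precision is that of 5 libraries a group. Genes with values in every library were Isg15, Stat2, Irf7, Irf9, Ifit1, Ifit3 and Ifit3b, and those with the smallest p or largest called differences in each direction. The members and lists were chosen with earlier results of these data known. Transcript copies were found with blastn 2.17.0, and promoter sequences and gene positions are those of GRCm38. One item of the receptor and signalling list is not reported here.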

Additional observations from a re-analysis of the deposited data

Results flagged for a closer look

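Among 116 groups of 5 libraries over 29 values, 11 had 1 library far from the other 4 (Dixon's test, critical value 0.71), where chance gives about 1 in 20 groups. Ifng, Igtp, Irgm1 and Gbp2 were looked up after AF vehicle 12 had been seen to stand apart, and their 16 groups held 7 of the 11, of which 4 were that library. The other 25 values gave the other 4, among them Iigp1 in AF vehicle 12. Most of these values are genes of the same libraries that vary together, many chosen by their p or difference. The chance rate is therefore only a rough guide to them. In AF vehicle 12, Iigp1 was at 100.67 scaled FPKM (others 6.04 to 11.8), Igtp at 91.0 (11.6 to 22.2), Irgm1 at 79.7 (19.6 to 28.5) and Gbp2 at 114 (16.7 to 24.6). Ifng, their inducer by textbook knowledge, was at 8.87 (0.0477 to 0.292). In NP MDL-800 22, Isg15 was at 6.74 (others 2.36 to 3.53) and Irgm1 at 16.9 (13.6 to 14.0). Mx2 was at 0.600 in NP vehicle 1 (others 0.918 to 0.986) and at 0.424 in NP MDL-800 19 (1.29 to 1.56). Ifng was listed at 0 in NP vehicle 3 (others 0.0493 to 0.0619) and at 0.0526 in NP MDL-800 18 (others at 0), which is about 1 fragment or none.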

How the results depend on the processing

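With other pseudocounts, filters, scalings, groups in the fit or libraries, the total of the 48 genes called stayed within 1.5 times the stated one in all 5 comparisons, and the medians kept their sign. The genes higher in NP of vehicle mice, 3 as stated, were 8 after quantile normalization, 6 with the GC trend removed, 5 in the fit of all 4 groups, and 1 to 5 with single libraries left out. With the GC trend removed, 30 were lower in NP of vehicle mice and 28 in NP of MDL-800 mice. After quantile normalization the NP minus AF medians were -0.70 in vehicle and -0.39 in MDL-800 mice, against -1.08 and -0.82. Leaving out single libraries gave 33 to 39 genes called in vehicle and 35 to 39 in MDL-800 mice, with medians from -1.22 to -0.93 and from -0.87 to -0.77. Of the genes called, 33 of 36 and 35 of 40 kept the call in every such fit. Leaving out NP vehicle 1 and 2 together, an alternative chosen after seeing the data, gave 1 higher and 29 lower (median -1.13). Without single libraries the treatment medians were -0.14 to -0.067 in NP and -0.44 to -0.23 in AF, and those of the difference of effects 0.15 to 0.33, with 0 called in each.

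The sign of several values that passed no test turned. For Mx2 between tissues of vehicle mice it was 0.51 after quantile normalization, 0.11 with the GC trend removed, 0.031 without NP vehicle 1 and 2, and -0.083 to 0.023 with single libraries left out. Gbp2 in that comparison was at -0.075 without NP vehicle 1 and 2 and at -0.061 to 0.62 with single libraries left out. Ifitm2 and Samd9l under MDL-800 in AF ran from -0.016 to 0.20 and from -0.12 to 0.24, and Rsad2 there, 0.026 as stated, from -0.45 to 0.28 over 17 settings, 7 of them negative. Between tissues of MDL-800 mice Irf7, -0.037 as stated, ran from -0.22 to 0.22, with 7 of 18 settings positive, and Ifit1 from -0.58 to 0.026, with 3 positive. Usp18 in vehicle mice was 0.065 after quantile normalization, and Irf7 under MDL-800 in NP was -0.076 without NP vehicle 1 and 2. The cause was not tested. Genes near 1 FPKM, such as Mx2 and Oas1a in NP, are limited by depth.

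NP and AF column names share a second number for 5 vehicle and 3 MDL-800 pairs, which the labels do not explain. Their deviations from the group means correlated at -0.178 to 0.285, not above 0.1 in every pair, so the pairing was not taken as shown. With that number as a replicate block, an alternative chosen after seeing the data, 6 genes were higher and 33 lower in vehicle mice (median -1.08). For the 3 MDL-800 pairs 7 were higher and 27 lower with the block and 9 and 27 without it (median -0.74 in both), and for the difference of effects over 8 pairs 0 were called (median 0.43).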
